A study of Mus musculus with 24 samples.

Results

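The response of control MC38 cells to 1 h of TNF was measured in 8 of the 24 libraries of a study of the gene Ado. MC38 is a mouse colon carcinoma cell line grown in DMEM with fetal calf serum. The TNF 1 h group held 4 libraries of cells carrying control guide RNA 1 or control guide RNA 2 and treated with TNF-alpha for 1 h. The untreated group held 4 libraries of the same pair of guide populations without TNF. Each guide population gave 2 libraries per treatment. The members compared were all 13272 genes, of 15390 in the deposited table, that reached a value of 0 on the log2 scale in at least 4 of the 24 libraries. Cells carrying guide RNA 1 or 2 against Ado, genotype Ado KO in the labels, had the same treatments, and control cells were also treated with TNF for 6 h; both are used below only as comparisons. All cells carried a guide RNA. The TNF dose and whether a guide population was a clone or a pool are not given in the sources used here. Libraries are named by guide and replicate number, so 2-1 is replicate 1 of guide 2, and runs of 4 values follow the order 1-1, 1-2, 2-1 and 2-2.

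TNF is a cytokine that binds TNF receptors on the cell surface, from which a complex of adaptor proteins, kinases and ubiquitin ligases activates the IKK kinases and the MAP kinases. IKK marks the inhibitor IkB-alpha for degradation, which lets NF-kB dimers enter the nucleus, and the MAP kinases act on AP-1 and serum response factors. The first genes transcribed are mostly short primary response genes, which need no new protein: inhibitors that shut the pathway off, transcription factors, chemokines that call in leukocytes, and proteins that degrade short-lived messages.

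The promoters of 4 of the genes described below are shown first because each holds letters that match an NF-kB site. The 250 bases before the annotated start are given in the direction of transcription, from RefSeq on GRCm38.p6, with the matches in capitals. They lie at chr5:90890995-90891244 (plus strand) for Cxcl1, chr10:19015411-19015660 (minus strand) for Tnfaip3, chr12:55492648-55492897 (minus strand) for Nfkbia and chr5:92348890-92349139 (minus strand) for Cxcl10.
Cxcl1: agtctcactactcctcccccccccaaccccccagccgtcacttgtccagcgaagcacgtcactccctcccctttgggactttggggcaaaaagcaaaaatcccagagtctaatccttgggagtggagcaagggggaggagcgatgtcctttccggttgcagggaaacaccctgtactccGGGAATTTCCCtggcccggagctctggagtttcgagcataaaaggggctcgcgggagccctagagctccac
Tnfaip3: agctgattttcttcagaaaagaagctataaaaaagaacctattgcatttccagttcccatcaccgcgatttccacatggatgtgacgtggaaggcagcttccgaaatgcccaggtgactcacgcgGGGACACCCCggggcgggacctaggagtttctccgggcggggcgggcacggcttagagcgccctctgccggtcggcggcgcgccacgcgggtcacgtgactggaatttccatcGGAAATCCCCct
Nfkbia: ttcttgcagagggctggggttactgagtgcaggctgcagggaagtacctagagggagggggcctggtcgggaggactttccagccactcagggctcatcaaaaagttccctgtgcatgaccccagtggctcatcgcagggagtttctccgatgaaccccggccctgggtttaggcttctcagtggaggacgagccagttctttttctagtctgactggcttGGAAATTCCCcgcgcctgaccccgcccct
Cxcl10: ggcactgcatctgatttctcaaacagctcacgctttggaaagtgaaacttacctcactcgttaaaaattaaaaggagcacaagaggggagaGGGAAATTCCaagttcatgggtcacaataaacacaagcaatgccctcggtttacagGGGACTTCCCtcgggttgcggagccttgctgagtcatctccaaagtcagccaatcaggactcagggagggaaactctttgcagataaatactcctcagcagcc

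Sites of 8 further genes that rose are shown with 8 bases on each side, as examples of the 4 motifs described. The first 3 match an NF-kB site, the next a CArG box (the site of serum response factor), the next 3 a cyclic AMP response element (CRE, TGACGTCA) and the last an AP-1 site (TGANTCA). Irf1, Ier3 and Csf1 carry their NF-kB match 13, 92 and 154 bases before the start.
Irf1: tccgggccGGGGAATCCCgctaagtg
Ier3: cgaagggcGGAGTTCCCCccggcccg
Csf1: gccttgagGGAAAGTCCCtaggggcc
Zfp36: aggccgccCCATAAAAGGagaaagct
Btg2: cccaataaTGACGTCAgtgagcga
Dusp8: cgctccgcTGACGTCAcctgcccc
Dusp1: agggcgggTGACGTCAccgcccgg
Csrnp1: aggcttggTGAGTCAcggacccc
Both strands were searched. A promoter window of 300 bases, which runs 50 bases past the start, was at hand for 30 of the 44 genes that rose (68.2%) and for 8720 of the 13272 genes tested (65.7%). That is under 80%, so shares of the 2 sets cannot be compared. An NF-kB match was found in the windows of 9 of those 30 genes, the 7 named here with Hmgb2 and Cbx3, in 6.3% of the tested genes with a window and in 4.5% of all 32851 windows of the table. An AP-1 match was found in 4 of the 30, Tnfaip3, Csrnp1, Cxcl10 and Zfp36l1, in 6.0% of the tested genes with a window and in 7.8% of all windows. A CRE was found in 3, Btg2, Dusp8 and Dusp1, in 3.8% of the tested genes with a window and in 1.8% of all windows. A CArG box was found in Zfp36 alone, in 1.6% of the tested genes with a window and in 1.6% of all windows. A match is a description of letters and was not tested for binding.

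The unit of the deposited values, normalised log2 CPM, was read from the values themselves: their lowest and highest value are the same in each library, as quantile normalisation would leave them, and unlogged they have nearly 1 common sum. Tag numbers are estimates from the steps between low values, by which a library held 4640000 to 5890000 tags, and at the lowest value there were 681 to 1008 genes in each. Correlations across genes were 0.963 to 0.976 between replicates of 1 guide and treatment and 0.955 to 0.976 between TNF 1 h and untreated libraries; genes are not independent replicates. The labels do not say whether replicates came from separate cultures, so the spread behind the p-values may be technical. Ado stood at 5.15, 5.02, 5.21 and 5.37 log2 CPM with TNF and at 5.22, 5.25, 5.21 and 5.37 untreated, a difference of -0.08 ± 0.10 (SE, limma adjusted p = 0.775). In Ado KO cells its mean was 5.35 both with TNF for 1 h and untreated, so the genotype was taken from the labels. Of 16 colon epithelium markers 4 had a row and 1, Krt8, passed the filter, at -0.30 ± 1.06 log2 CPM with TNF and 0.03 ± 0.63 untreated (SD, n = 4 each), so these markers do not show an epithelial identity. Vim, a mesenchymal filament gene, stood at 10.45 to 10.64 with TNF and 10.44 to 10.71 untreated. Of 9 fibroblast markers 5 had a row (Pdgfra, Dcn, Dpt, Thy1 and Pdpn), while Lum, Col1a1, Col1a2 and Fap had none. Those 5 summed to 317 to 391 CPM with TNF and 330 to 411 CPM untreated. Of 23 immune markers 12 had a row, and they summed to 15.5 to 18.3 CPM with TNF and 8.96 to 20.7 CPM untreated. The 7 with a row of 14 endothelium and pericyte markers summed to 20.9 to 40.6 CPM and 29.1 to 38.8 CPM. No tested marker of these 4 lists was called by limma, and at an unadjusted p under 0.05 there were 1 higher, of endothelium and pericytes, and 0 lower.

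After 1 h of TNF 52 of the 13272 genes were called (0.392%), 44 higher (0.332%) and 8 lower (0.0603%), at a limma adjusted p under 0.05 (Benjamini-Hochberg over the genes tested). Of the 44, 19 were at least 2-fold higher and 7 at least 4-fold higher, and 1 of the 8 falls was at least 2-fold. The 4 TNF libraries lay wholly above the 4 untreated ones for 41 of the 44, against 3.16% of all genes tested, and wholly below for 8 of 8, against 2.98%. The median log2 fold change of all genes was -0.03. At an unadjusted p under 0.05 there were 1876 genes, 1032 higher and 844 lower. A further 179 genes had a log2 fold change of 1 or more and 106 of -1 or less without a call. These had a median level of -0.47 log2 CPM, against 3.54 for all genes tested. Every test was two-sided and took its error from all 24 libraries.

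**Figure D1:**
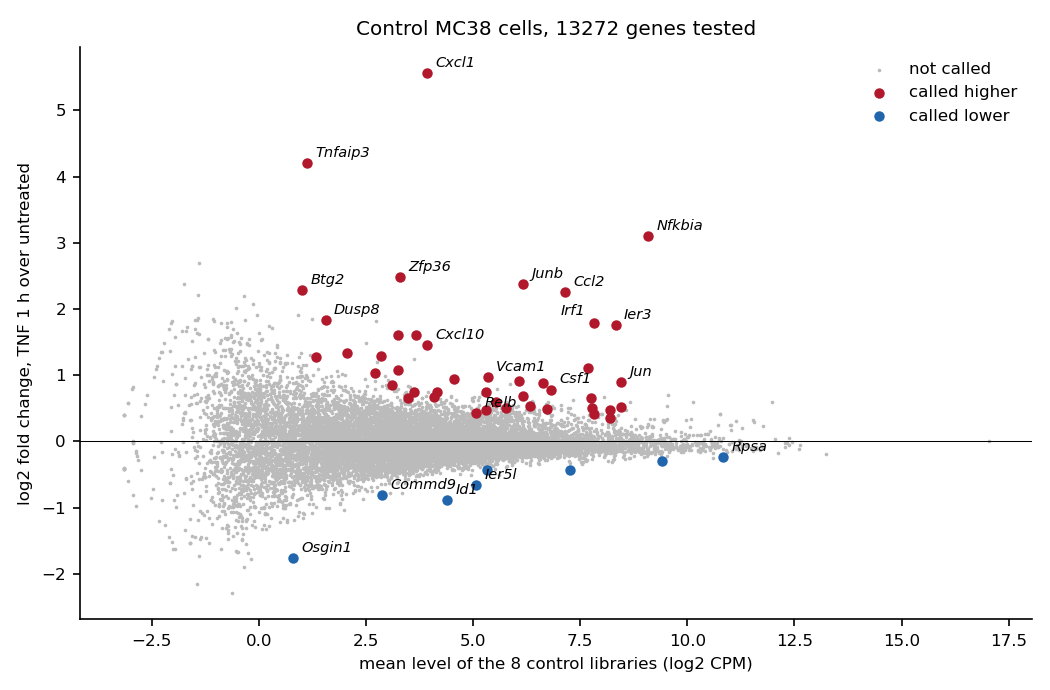
Log2 fold change of TNF 1 h over untreated (vertical axis) against the mean log2 CPM of the 8 control libraries (horizontal axis) for 13272 genes; red points were called higher (44), blue lower (8) and grey not called. Most large rises stand clear of the grey cloud, Cxcl1 at 5.57 and Tnfaip3 at 4.20, while the falls lie at its edge.

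The inhibitors that end NF-kB signalling were among the largest rises. Nfkbia (GRCm38 chromosome 12, 55489410 to 55492647), which encodes IkB-alpha, was at 10.80, 10.89, 10.43 and 10.42 log2 CPM with TNF and at 7.48, 7.71, 7.34 and 7.61 untreated. All TNF libraries were high and none came near the untreated ones. The rise was 3.10 ± 0.08 on the log2 scale (SE; limma adjusted p = 1.01e-23), 8.57-fold, and Nfkbia had the smallest p of all genes. Tnfaip3 (chromosome 10, 19000910 to 19015657) encodes A20, which edits ubiquitin chains on the receptor complex. It was at 3.32, 2.65, 3.62 and 3.29 with TNF and at -1.67, -0.44, -1.76 and -0.06 untreated. The untreated values rest on 1, 3, 1 and 4 tags, against 52, 33, more than 60 and 57 with TNF, so the rise of 4.20 ± 0.39 (SE; limma adjusted p = 8.49e-09) starts near the floor of the assay. Relb, an NF-kB subunit of the slower noncanonical arm, rose by 0.43 ± 0.09 (SE; limma adjusted p = 0.0256).

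Of the 27 tested NF-kB subunits, IkB inhibitors and ubiquitin feedback genes, these 3 rose, 0 fell and 24 were not called, with a median log2 fold change of 0.25 against -0.03 for all genes. This list and those below were written with earlier results of these data known, which favours called members and raised medians. Among those not called, Nfkbiz, a nuclear IkB protein, was at 1.33, 2.26, 1.42 and 1.74 log2 CPM with TNF and 0.02, 1.03, -0.01 and 1.11 untreated (difference 1.15, unadjusted p = 0.00789). Nfkbid, a related nuclear IkB, differed by 0.98 (unadjusted p = 0.00946) and Birc2, a ubiquitin ligase of the receptor complex, by 0.77 (unadjusted p = 0.0116). All 3 held between 4 and 41 tags per library. Of 33 tested genes of the receptor side (TNF receptor, IKK, TAK1 and death signalling) 0 were called by limma, against 0.392% of all genes tested. At that share, 0 calls in a list of this size is not a result about the list. Its log2 fold changes ran from -0.64 to 1.10 with a median of 0.03. At an unadjusted p under 0.05, 4 were higher and 1 lower. Its members Xiap, an inhibitor of caspases, at 0.55, Tank, a TRAF-binding adaptor, at 0.39, and Map3k7, the TAK1 kinase, at 0.33 had unadjusted p of 0.0222, 0.0309 and 0.0119.

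The chemokine genes Cxcl1, Ccl2 and Cxcl10 and the growth factor gene Csf1 rose. Cxcl1 (chromosome 5, 90891241 to 90893115), a neutrophil chemokine, was at 6.13, 5.94, 7.41 and 7.39 log2 CPM with TNF and at -0.89, 1.31, 1.88 and 2.31 untreated. Guide 2 libraries were higher than guide 1 libraries in both groups, and untreated 1-1, with 2 tags, was the lowest. The rise was 5.57 ± 0.38 (SE; limma adjusted p = 5.47e-12), the largest of the genes called, and 4.93 without that library. Ccl2 (chromosome 11, 82035571 to 82037453), which attracts monocytes, was at 8.72, 7.59, 8.49 and 8.31 with TNF and at 5.29, 5.82, 6.43 and 6.54 untreated. It was abundant before TNF and rose by a further 2.25 ± 0.32 (SE; limma adjusted p = 4.43e-05). Cxcl10, which attracts T cells, was at 4.56, 4.69, 4.51 and 4.89 with TNF and at 3.28, 2.76, 3.24 and 3.54 untreated, a rise of 1.45 ± 0.16 (SE; limma adjusted p = 1.72e-07). Csf1, the macrophage growth factor, was at 7.30, 7.26, 7.12 and 7.14 with TNF and at 6.22, 6.27, 6.56 and 6.64 untreated, a rise of 0.78 ± 0.12 (SE; limma adjusted p = 0.000212).

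Of 42 listed chemokines and cytokines 25 had a row, 19 were tested, 4 rose, 0 fell and 15 were not called; a gene silent in all groups could not be tested. The median over the 19 was 0.78 against -0.03 for all genes, and 16 of the 19 had a positive log2 fold change. The filter counted TNF libraries too, so a gene near the floor in untreated cells could pass through them alone. That favours positive values in this list, and how far it did so was not tested. The cytokine gene Lif was at 0.97, 0.63, 0.88 and -0.09 with TNF and at -3.35, -0.06, -1.76 and 0.21 untreated, a difference of 1.84 with an unadjusted p of 0.00565. Its groups overlapped, and no library held more than 9 tags. Cx3cl1, a membrane-bound chemokine, differed by 1.16 and Tnfsf9, a T cell costimulatory ligand, by 1.07, with unadjusted p of 0.0153 and 0.0392.

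**Figure D2:**
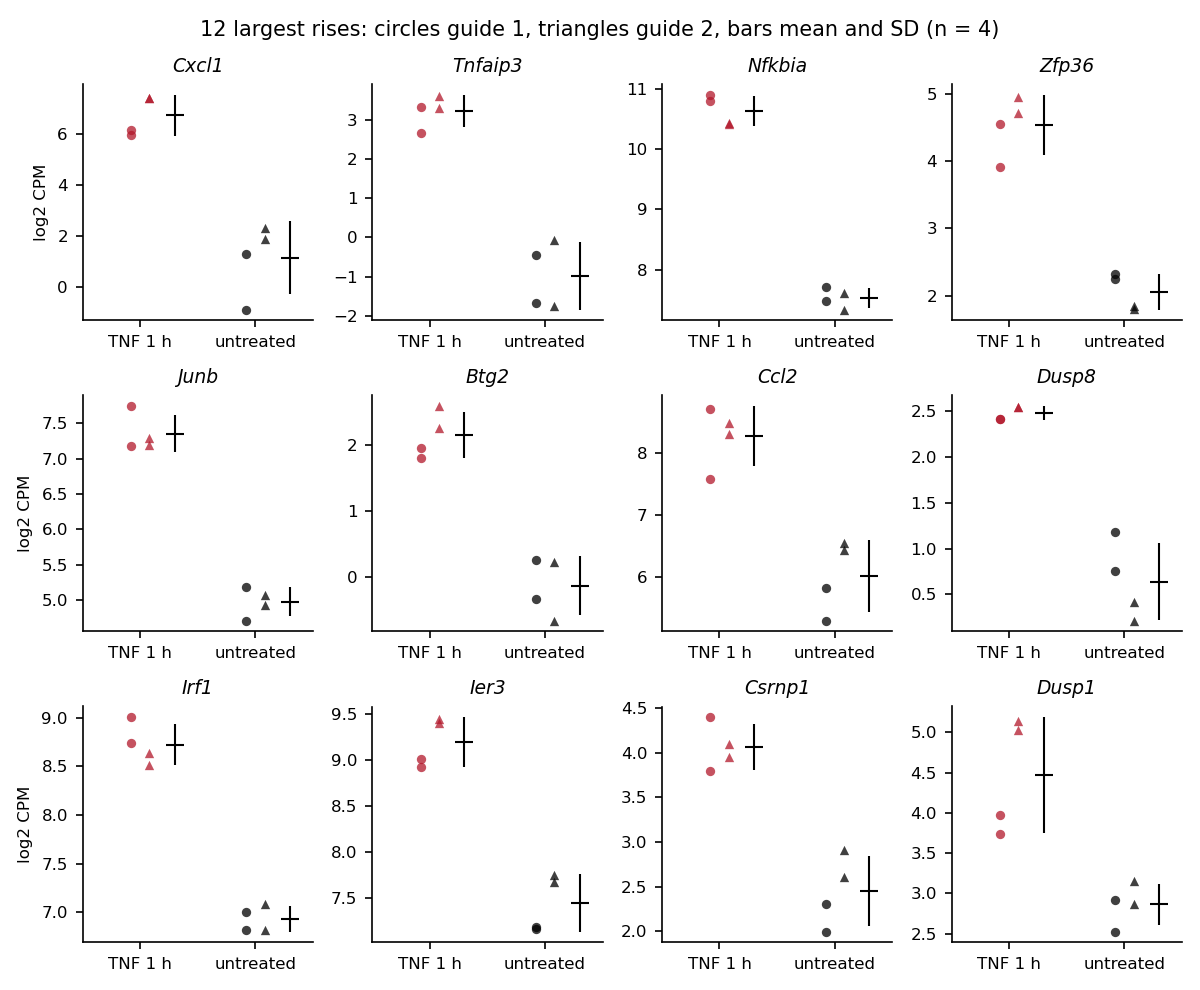
Log2 CPM of the 12 genes with the largest called rises in each library, TNF 1 h left and untreated right; circles are guide 1, triangles guide 2, and bars the mean and SD of 4 libraries. The groups do not overlap in any panel, and in Cxcl1, Zfp36, Btg2, Dusp8, Ier3 and Dusp1 both guide 2 libraries with TNF stand above both of guide 1.

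The AP-1 genes Junb and Jun rose. Junb (chromosome 8, 84974484 to 84978718), an AP-1 subunit, was at 7.74, 7.18, 7.29 and 7.19 log2 CPM with TNF and at 4.71, 5.19, 4.93 and 5.07 untreated, a rise of 2.38 ± 0.12 (SE; limma adjusted p = 3.35e-15). Its partner Jun was at 8.89, 9.00, 8.89 and 8.87 with TNF and at 8.01, 7.96, 8.01 and 8.07 untreated. The libraries of each group lay close together for Jun, whose rise was 0.90 ± 0.07 (SE; limma adjusted p = 5.27e-11). Of 14 tested AP-1 genes these 2 rose and 12 were not called. Fos, the classical serum-induced partner of Jun, stood near the floor, with 3, 5, 6 and 7 tags with TNF and 2, 1, 5 and 0 untreated (difference 1.56, unadjusted p = 0.0162). Maff and Fosl2, further AP-1 relatives, differed by 0.63 and 0.26 (unadjusted p = 0.018 and 0.00308). Maff was at 0.04 in guide 1 and 1.22 in guide 2.

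Of 47 tested EGR, KLF, IER and other immediate-early genes 10 rose, 1 fell and 36 were not called, with a median of 0.32 against -0.03 for all genes. Ier3 (chromosome 17, 35821684 to 35822923), a short stress-response gene linked to cell survival, was at 8.93, 9.02, 9.45 and 9.41 with TNF and at 7.19, 7.17, 7.68 and 7.76 untreated, a rise of 1.75 ± 0.11 (SE; limma adjusted p = 1.27e-12). Guide 2 was higher than guide 1 in both groups by a similar amount. Csrnp1, a nuclear protein gene, was at 4.40, 3.80, 4.10 and 3.96 with TNF and at 2.00, 2.31, 2.91 and 2.60 untreated, a rise of 1.61 ± 0.16 (SE; limma adjusted p = 4.56e-08). Smaller rises were those of Gadd45b (1.33 ± 0.21), a stress sensor that dampens JNK signalling, Ier5 (1.11 ± 0.07), Egr1 (0.94 ± 0.14), a zinc finger factor, and Klf6 (0.89 ± 0.13). The Krüppel-like factor gene Klf10 (0.66 ± 0.15), Phlda1 (0.50 ± 0.09), Rhob (0.47 ± 0.10), a small GTPase, and Ifrd1 (0.47 ± 0.08) completed the 10 (log2 scale, SE). Ankrd1, Ier2 and Ptgs2, of which the last encodes the prostaglandin synthase COX-2, differed by 0.52, 0.48 and 0.47 without a call (unadjusted p = 0.000279, 0.00325 and 0.0148).

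Dusp8 and Dusp1 encode phosphatases that switch off MAP kinases. Dusp8 was at 2.41, 2.42, 2.54 and 2.54 log2 CPM with TNF and at 0.75, 1.18, 0.42 and 0.21 untreated, a rise of 1.84 ± 0.27 (SE; limma adjusted p = 0.000114). Dusp1 (chromosome 17, 26505590 to 26562128 in GENCODE) was at 3.97, 3.73, 5.03 and 5.14 with TNF and at 2.91, 2.52, 2.87 and 3.15 untreated. Its rise was 1.60 ± 0.25 (SE, limma adjusted p = 0.000199). The RefSeq promoter window that held its CRE, 26508423 to 26508722 on the minus strand, lies inside that span, so the 2 annotations place the start differently. The 2 guide populations stood apart in Dusp1 with TNF but not without it. Of 22 tested MAP kinase phosphatase, Sprouty and ERK feedback genes these 2 rose and 20 were not called, with a median of 0.03; Dusp16, another phosphatase, was at 0.49 (unadjusted p = 0.00802) and Spred1, a RAS pathway inhibitor, at 0.39 (unadjusted p = 0.0286).

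Zfp36 (chromosome 7, 28376784 to 28380253) encodes tristetraprolin, which binds AU-rich elements and destabilises cytokine messages. It was at 4.56, 3.92, 4.72 and 4.95 with TNF and at 2.32, 2.25, 1.81 and 1.86 untreated, a rise of 2.48 ± 0.21 (SE; limma adjusted p = 8.18e-10). Its relative Zfp36l1 rose by 0.91 ± 0.10 (SE; limma adjusted p = 2.85e-07). Btg2, an antiproliferative factor that recruits the CCR4-NOT deadenylase and is also a p53 target, was at 1.80, 1.95, 2.26 and 2.58 with TNF and at -0.33, 0.24, -0.67 and 0.21 untreated. Those values stand for 17, 20, 24 and 35 tags with TNF and 3, 5, 3 and 5 untreated, and the rise was 2.28 ± 0.26 (SE; limma adjusted p = 9.17e-07). Of 22 tested mRNA decay and BTG/TOB genes these 3 rose and 19 were not called, with a median of 0.10. The decay nuclease Zc3h12a (Regnase-1) differed by 1.16 and its relative Zc3h12c by 1.33, while the decapping gene Dcp1a was at -0.73 (unadjusted p = 0.00704, 0.0186 and 0.0211). The difference of Zc3h12a came from guide 2, at 2.32, against -0.0 in guide 1.

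Irf1 (chromosome 11, 53770014 to 53778374), the interferon regulatory factor that NF-kB also induces, was at 9.01, 8.74, 8.64 and 8.51 log2 CPM with TNF and at 6.82, 7.01, 6.82 and 7.09 untreated. All TNF libraries stood more than 1 log2 unit above every untreated one, and the rise was 1.79 ± 0.10 (SE; limma adjusted p = 7.55e-14). Of 43 tested interferon regulatory and interferon-stimulated genes Irf1 alone was called, and the median was 0.22. Oas2, a sensor of double-stranded RNA, was at -1.07, Gbp7, a guanylate-binding protein, at 0.58 and Socs3, a suppressor of cytokine signalling, at 0.52, all without a call (unadjusted p = 0.00306, 0.0178 and 0.0397). By guide, Socs3 was at 0.03 in guide 1 and 1.0 in guide 2. Of 21 class I antigen presentation genes 0 were called by limma, against 0.392% of all genes tested. Their median was 0.00, with 3 higher and 2 lower at an unadjusted p under 0.05.

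Vcam1, the adhesion molecule that holds leukocytes on activated cells, was at 6.04, 5.91, 5.71 and 5.66 with TNF and at 4.69, 4.81, 4.91 and 5.02 untreated. It rose by 0.97 ± 0.09 (SE; limma adjusted p = 9.17e-09) and was the 1 called gene of 15 tested adhesion, acute phase and protease genes; F3, tissue factor, was not called at 1.02 (unadjusted p = 0.0258). Several rises fell outside these lists. Rnd1, whose product loosens the actin cytoskeleton, was at 3.79, 3.02, 3.68 and 3.51 with TNF and at 2.20, 1.82, 2.07 and 2.77 untreated (rise 1.29 ± 0.19 SE; limma adjusted p = 7.97e-05). Nipal1, named for its likeness to magnesium transporters, rose by 1.27 ± 0.26, Stx11, a syntaxin of vesicle fusion, by 1.08 ± 0.18, Adamts1, a secreted metalloprotease, by 1.04 ± 0.19, and Slfn2, a Schlafen family gene, by 0.75 ± 0.14 (log2 scale, SE).

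The remaining rises were all under 2-fold. Hmgb2, a chromatin protein, rose by 0.68 ± 0.15, Cdc73, a subunit of the PAF1 elongation complex, by 0.67 ± 0.14, Top2a, the mitotic topoisomerase, by 0.52 ± 0.12 and Cbx3, heterochromatin protein 1 gamma, by 0.51 ± 0.11 (log2 scale, SE). Pcm1, a centriolar satellite gene, rose by 0.75 ± 0.17, Srp54b, a signal recognition particle gene, by 0.74 ± 0.14 and Rsl1d1, a nucleolar protein gene, by 0.41 ± 0.10. The histone gene Hist2h2aa2 (0.49 ± 0.11), Hist1h2aj (0.36 ± 0.08), an unprocessed pseudogene in the GENCODE M21 annotation, and the small nucleolar RNA Snora30 (0.59 ± 0.13) rose too, with 3 gene models without a name. Histone genes share much of their sequence, so their tags may be split among copies. All histone genes together took 0.831% to 0.932% of the summed CPM with TNF and 0.723% to 0.784% untreated, without overlap, and small structural RNAs 0.273% to 0.367% and 0.245% to 0.285%. Of 38 tested S phase and mitosis genes Top2a alone was called, with a median of 0.02.

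Falls were few. Id1 (chromosome 2, 152736251 to 152737410) and Id3 are targets of BMP signalling whose products hold basic helix-loop-helix factors off DNA. Id1 was at 3.99, 3.12, 4.26 and 4.46 log2 CPM with TNF and at 4.57, 5.00, 4.87 and 4.92 untreated, a fall of -0.88 ± 0.19 (SE; limma adjusted p = 0.0204). Id3 was at 7.02, 6.79, 7.21 and 7.16 with TNF and at 7.35, 7.39, 7.65 and 7.53 untreated, a fall of -0.44 ± 0.10 (SE; limma adjusted p = 0.0291). These 2 fell among 14 tested BMP, ID and inhibitory SMAD genes, which had a median of -0.13, and Smad7, an inhibitory SMAD, was at 0.65 without a call (unadjusted p = 0.0192).

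Ier5l, a relative of the rising Ier5, was at 4.62, 4.40, 5.09 and 4.87 with TNF and at 5.58, 5.53, 5.21 and 5.31 untreated, a fall of -0.67 ± 0.13 (SE; limma adjusted p = 0.0051). The guide 1 libraries carried most of it. Osgin1, an oxidative stress gene that NRF2 induces, held 2, 4, 6 and 8 tags with TNF and 12, 11, 24 and 17 untreated, at -0.93, -0.30, 0.35 and 0.54 log2 CPM and at 1.42, 1.31, 2.14 and 1.86. It was the largest fall at -1.77 ± 0.41 (SE; limma adjusted p = 0.0367) and the 1 called gene of 25 tested NRF2 and antioxidant genes, whose median was -0.05. Commd9, which acts in endosomal sorting, was at 2.13, 2.14, 2.73 and 2.91 with TNF and at 3.34, 3.31, 3.27 and 3.24 untreated, a fall of -0.81 ± 0.18 (SE; limma adjusted p = 0.0269).

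Derl2, a gene of protein disposal from the endoplasmic reticulum, was at 5.01, 4.85, 5.24 and 5.29 with TNF and at 5.51, 5.43, 5.66 and 5.54 untreated, a fall of -0.44 ± 0.10 (SE; limma adjusted p = 0.0291). It was the 1 called gene of 31 tested ATF4 and unfolded protein response genes. The ribosomal protein gene Rpl12 was at 9.18, 9.26, 9.28 and 9.36 with TNF and at 9.61, 9.62, 9.45 and 9.60 untreated, a fall of -0.30 ± 0.07 (SE; limma adjusted p = 0.0354). Rpsa, which encodes a small subunit protein and has many processed copies in the genome, was at 10.71, 10.62, 10.78 and 10.77 with TNF and at 11.04, 10.98, 10.89 and 10.91 untreated, a fall of -0.23 ± 0.05 (SE; limma adjusted p = 0.0351). These were 2 of 79 tested cytosolic ribosomal protein genes, whose median was -0.07 and of which 19 had a positive log2 fold change. Such genes took 10.8% to 11.6% of the summed CPM with TNF and 11.6% to 11.9% untreated, and mitochondrially encoded messages 1.84% to 1.99% and 1.40% to 1.75%; the part of these shares in the small rises and falls was not tested. Of the 13 mitochondrially encoded messages 0 were called, against 0.392% of all genes tested, while 8 were higher and 2 lower at an unadjusted p under 0.05. Their median was 0.31 in control cells and -0.07 in Ado KO cells.

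**Figure D3:**
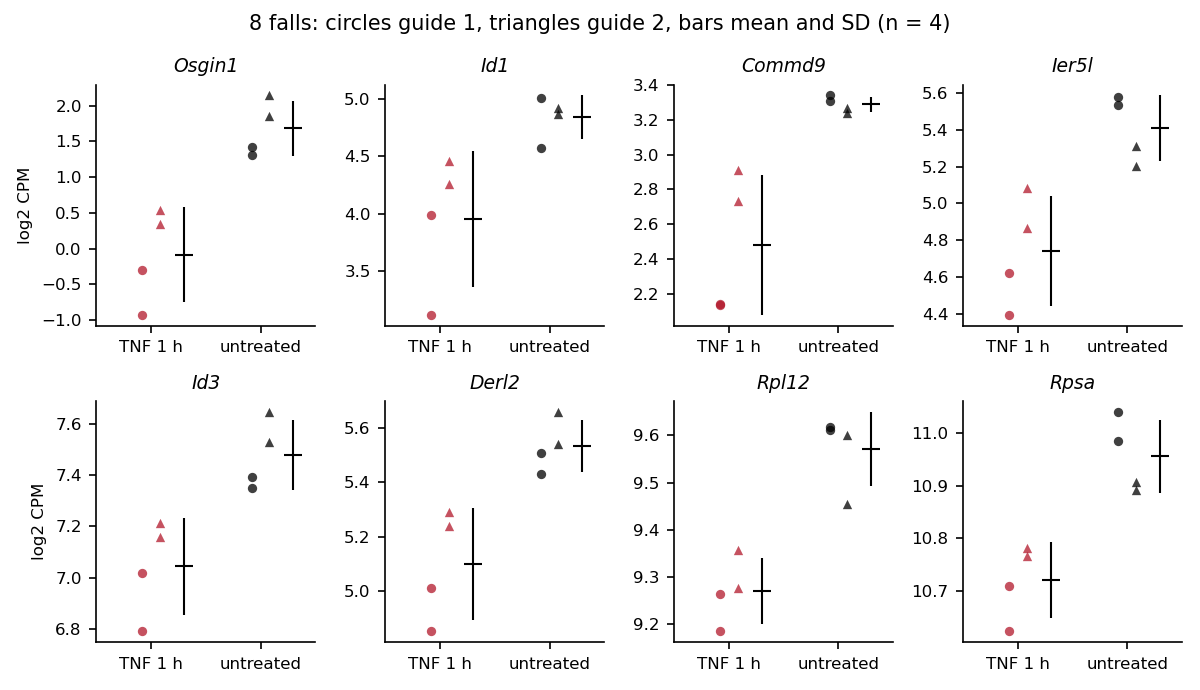
Log2 CPM of the 8 genes called lower in each library, TNF 1 h left and untreated right; circles are guide 1, triangles guide 2, and bars the mean and SD of 4 libraries. In all 8 panels the guide 1 libraries with TNF are the lowest.

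The falls depended on single libraries more than the large rises did. With only the 8 control libraries in the fit, 28 genes were called higher and 0 lower, so none of the 8 falls was called. Without untreated library 1-1, untreated 1-2, untreated 2-2 or TNF 1-2, 7 of the 8 falls were lost each time, without TNF 1-1 6 were, and no fall was called in all 8 fits that left out 1 library. Of the 49 called genes with a gene name, the 8 falls included, 27 were called in all 8 of those fits, all of them rises. Small rises were lost too: Klf10, Rsl1d1, Hist1h2aj and Snora30 were called in 2 of the 8 fits and Relb in 4. In place of 52 calls there were 31 without untreated 1-1, 34 without untreated 1-2, 41 without untreated 2-2 and 39 without TNF 1-2. The 3 genes nearest to the threshold inside it were Klf10 (limma adjusted p = 0.0415), Hist1h2aj (0.0402) and Rsl1d1 (0.0402). Just outside stood Bhlhe40, a circadian repressor gene, at 0.52, the sorting nexin gene Snx6 at 0.59 and the cell cycle inhibitor Cdkn1a at 0.59, all 3 with a limma adjusted p of 0.0501.

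Other pathways were read from lists of the same kind. Of 24 tested p53 targets Btg2 alone was called, with a median of 0.12, and Sesn1, a sestrin, and Ccng1, a cyclin, were at 0.84 and 0.51 without a call (unadjusted p = 0.0443 and 0.00249). None was called of 32 hypoxia-inducible and glycolysis genes (median -0.06; 1 higher and 3 lower at an unadjusted p under 0.05), 32 sterol and fatty acid synthesis genes (median -0.05; 1 higher and 2 lower) or 18 housekeeping genes (median -0.02; 0 higher and 2 lower). The same held for 25 extracellular matrix and mesenchymal genes and 23 actin and SRF target genes, with medians of 0.00 and 0.03. In each, 5 members were higher and 0 lower at an unadjusted p under 0.05. Their largest log2 fold changes, without a call, were 1.63 and 1.81. Over all genes tested 0.392% were called, so 0 calls in lists of these sizes does not show that a pathway was unchanged.

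**Figure D4:**
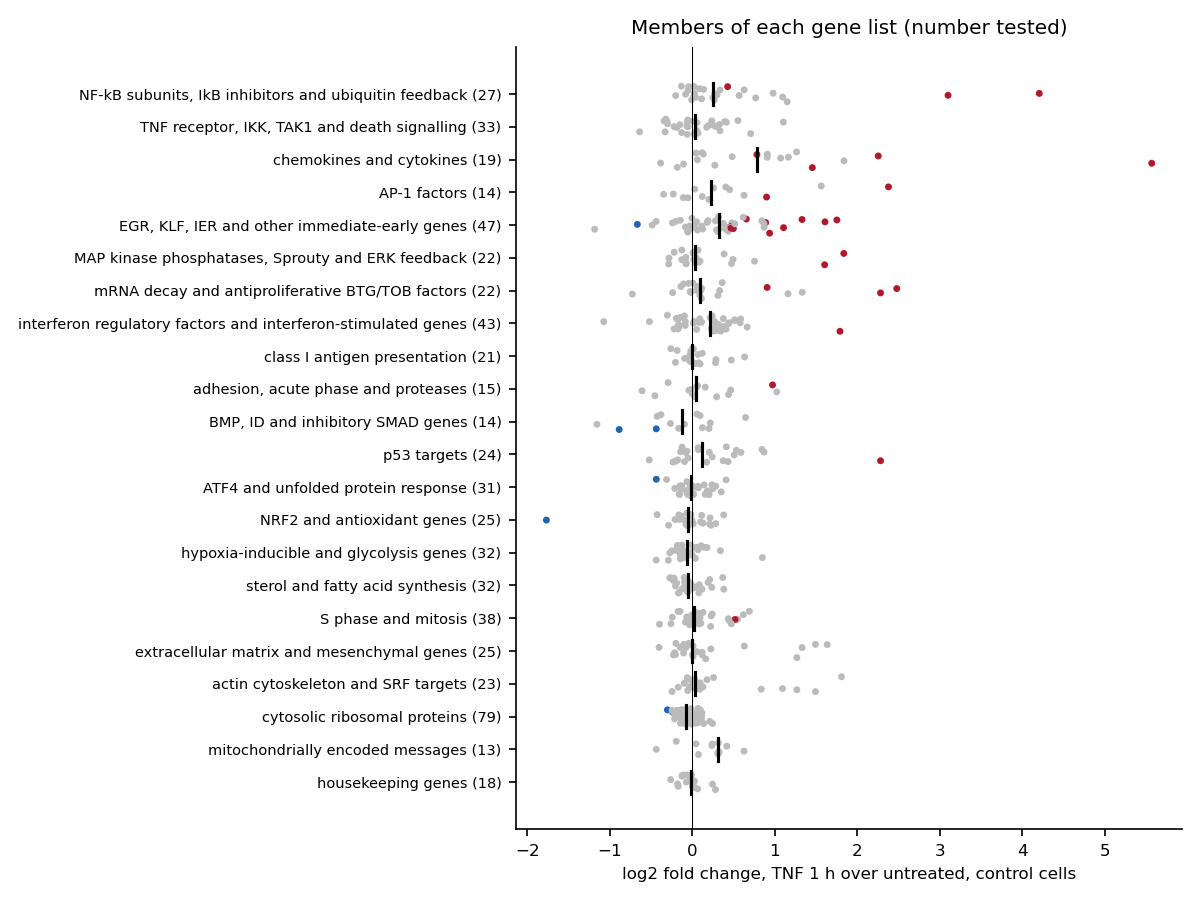
Log2 fold change of TNF 1 h over untreated in control cells for each tested member of 22 gene lists, with the number tested in brackets; red members were called higher, blue lower and grey not called, and black bars are medians. Most called rises stand in the first 8 lists, of which the second has none, and the medians of most other lists lie close to 0. The lists were written with earlier results of these data known, which favours called genes in them.

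The same treatment of Ado KO cells, in 8 other libraries, called 32 genes higher (0.241%) and 2 lower (0.0151%). The filter and error of both comparisons came from all 24 libraries, so the 2 sets of calls are not wholly separate. With only the 8 Ado KO libraries in the fit, 20 genes were called in place of 34. Of the genes called higher, 26 were called in both genotypes, which is 59.1% of the 44 in control cells and 81.2% of the 32 in Ado KO cells. These 26 had a median log2 fold change of 1.39 in control cells and 1.42 in Ado KO cells, and 23 of them were called in every fit that left out 1 control library. They include the inhibitors Nfkbia (3.10 in control and 3.13 in Ado KO cells) and Tnfaip3 (4.20 and 3.82), the chemokine genes Cxcl1 (5.57 and 4.74), Ccl2 (2.25 and 1.55) and Cxcl10 (1.45 and 1.48), Junb (2.38 and 2.18), Irf1 (1.79 and 1.63) and Zfp36 (2.48 and 2.58). The phosphatase genes were higher in Ado KO cells in size, Dusp8 at 1.84 and 2.59 and Dusp1 at 1.60 and 2.07, but the differences had an unadjusted p of 0.0591 and 0.189. Of the 26, only Zfp36l1 had a difference at an unadjusted p under 0.05, with 0.91 in control and 0.53 in Ado KO cells (limma, unadjusted p = 0.0123). Another 6 were called higher in Ado KO cells and not in control cells. Among them were Ier2 (0.48 in control and 0.72 in Ado KO cells) and Cdkn1a (0.59 and 0.68). Their differences between genotypes had a limma unadjusted p of 0.268 and 0.664.

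The 18 rises called in control cells and not in Ado KO cells were smaller, with a median of 0.62 in control and 0.23 in Ado KO cells. Of these 12 were positive in Ado KO cells and 9 of them had an unadjusted p under 0.05 there, Csf1 (0.51 ± 0.12) and Relb (0.35 ± 0.09) among them. Klf6 was at 6.38, 6.48, 6.54 and 6.75 log2 CPM with TNF and at 6.51, 6.23, 6.11 and 6.13 untreated in Ado KO cells, a difference of 0.29 against 0.89 in control cells (difference 0.60; unadjusted p = 0.00241). Hmgb2, Cdc73, Srp54b, Cbx3, Rsl1d1 and Gm28439, an unnamed model, were at -0.21, -0.17, -0.04, -0.04, -0.04 and -0.05 in Ado KO cells. Of the 18, 10 had a difference between genotypes at a limma unadjusted p under 0.05, against 1304 of all 13272 genes tested. Choosing genes called in control cells and not in Ado KO cells favours such differences. The TNF 1-2 library of control cells was the highest of its group for 12 of these 18 genes and for 6 of the 26, against 30.4% of all genes tested. Of the 15 with a gene name, 9 were lost without that library. Without untreated 1-1, untreated 1-2 or untreated 2-2, 11, 9 and 8 were lost, and without any other control library 0 to 5. Of the 15, 4 were called in every fit that left out 1 control library. None of the 8 falls was called in Ado KO cells: 5 were negative there, Id1 at -0.63, Ier5l at -0.55 and Id3 at -0.39 with an unadjusted p under 0.05, and Osgin1 and Commd9 were at 0.11 and 0.09.

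The difference of the 1 h response between genotypes was tested directly, and 0 of 13272 genes passed (0%), with a smallest limma adjusted p of 0.432. At an unadjusted p under 0.05 there were 1304 genes, 676 with a higher and 628 with a lower log2 fold change in control cells. Every alternative run gave 0 except 1: without the Ado KO TNF 1 h library 2-2, 38 genes passed, 36 of them with a higher log2 fold change in control cells. No gene is thereby shown to respond in control cells alone.

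**Figure D5:**
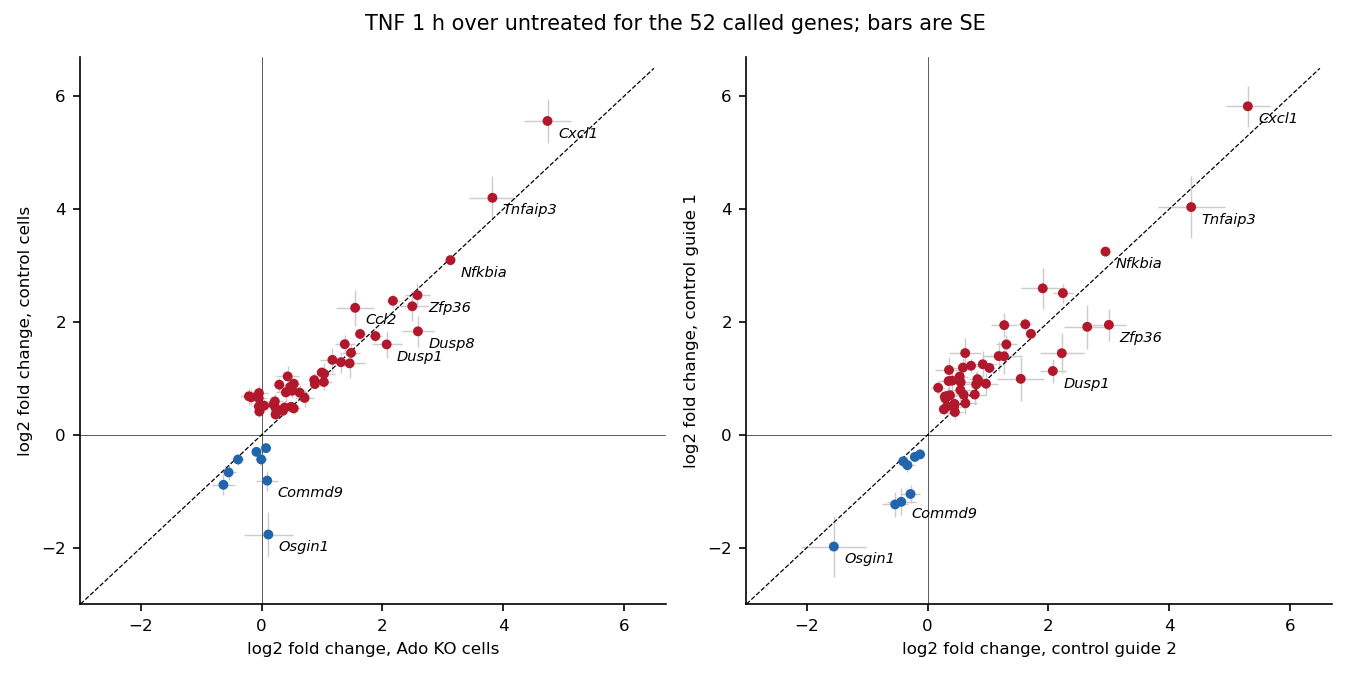
Log2 fold change of TNF 1 h over untreated for the 52 called genes, in control cells against Ado KO cells (left panel) and in control guide 1 against control guide 2 (right panel); red genes were called higher, blue lower, bars are SE and the dashed line marks equal values. Nfkbia and Tnfaip3 lie near the line in both panels, while Dusp8 (1.84 in control and 2.59 in Ado KO cells) stands off it in the left panel. Zfp36 (1.95 in guide 1 and 3.0 in guide 2) and Dusp1 (1.13 and 2.08) stand off it in the right panel. There 42 of 52 genes were larger in guide 1.

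The time after TNF separated the rises. Control cells at 6 h were set against the same TNF 1 h libraries, so the 2 comparisons share samples and are given side by side; over all genes 4.82% were called higher and 2.86% lower at 6 h than at 1 h. Of the 44 genes that rose at 1 h, 15 were higher again at 6 h, 5 were lower at 6 h than at 1 h and 24 were not called apart. The 44 were chosen as high in those TNF 1 h libraries, which favours lower values at 6 h. The 5 were Cxcl1, at a mean of 1.15 untreated, 6.72 at 1 h and 5.28 log2 CPM at 6 h, Zfp36 at 2.06, 4.54 and 3.48, Dusp1 at 2.86, 4.47 and 2.91, Dusp8 at 0.64, 2.48 and 1.47, and Irf1 at 6.93, 8.72 and 8.14. At 6 h Dusp1 was 0.04 ± 0.25 above untreated cells (SE; limma adjusted p = 0.929), and Cxcl1 4.13 ± 0.38 above (limma adjusted p = 6.43e-10).

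Among the 15 that rose on, Ccl2 stood at a mean of 6.02 untreated, 8.27 at 1 h and 10.02 at 6 h, and Vcam1 at 4.86, 5.83 and 7.44. Relb, with 4.85, 5.28 and 6.67, Csf1, with 6.42, 7.21 and 8.36, Cxcl10, with 3.21, 4.66 and 5.61, and Rnd1, with 2.21, 3.50 and 4.84, did the same. Egr1 was at 4.08, 5.02 and 5.99, and Snora30 at 5.25, 5.84 and 8.12. Nfkbia (7.54, 10.63 and 10.52), Junb (4.97, 7.35 and 7.14) and Tnfaip3 (-0.98, 3.22 and 2.28) were not called apart between 1 h and 6 h. Of the 8 falls, Id3 (7.48, 7.04 and 6.16) and Ier5l (5.41, 4.74 and 3.92) fell further by 6 h and 6 were not called apart.

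Both guide populations moved each of the 52 genes the same way. The 52 were called on these same libraries, which favours equal signs. Of the 52, 42 moved further in guide 1, and the median size on the log2 scale was 0.63 in guide 2 and 1.01 in guide 1. Neither count was made over all genes. With the 2 libraries of a group and guide compared within each population, and the error of all 12 populations and treatments, 18 genes were called in guide 2 alone and 618 in guide 1 alone. The 18 of guide 2 were all among the 52, and the 618 of guide 1 held 48 of them. The difference between guides passed the test for 1 of 13272 genes (0.00753%), Snord52, a small nucleolar RNA that is not among the 52. Among the 52, 18 (34.6%) had a guide difference at an unadjusted p under 0.05, against 1496 of all genes (11.3%). By the limma interaction, guide 2 had the larger change for Dusp1 (2.08 in guide 2 and 1.13 in guide 1, unadjusted p = 0.00524) and Zfp36 (3.00 and 1.95, unadjusted p = 0.0133). By the same limma interaction the change in guide 2 was the smaller one for Cbx3 (0.18 and 0.84, unadjusted p = 0.000491), Ier5l (-0.28 and -1.05, unadjusted p = 0.00169), Vcam1 (0.72 and 1.23, unadjusted p = 0.0045) and Csf1 (0.53 and 1.03, unadjusted p = 0.0211).

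The genes that rose were compact. In the GENCODE M21 annotation of GRCm38 the 43 matched genes of the 44 spanned a median of 5567 bases, against 17425 for all genes tested, and the 39 coding ones with a transcript had a median of 4 exons against 9. The 26 also called in Ado KO cells spanned a median of 4698.5 bases with 3.5 exons, and the rest 10362 bases with 9 exons. Junb, Jun, Ier5 and Rhob have 1 exon in that annotation. The AU-rich nonamer TTATTTATT, the kind of element that Zfp36 protein binds, stood in the 3' untranslated region of 11 of the 39 (28.2%), against 793 of 10790 coding genes tested (7.3%). Cxcl1 and Dusp1 carry 2 each, and Zfp36, Zfp36l1, Nfkbia, Tnfaip3, Dusp8, Csrnp1 and Phlda1 carry 1 each. It was present in 9 of the 26 called in both genotypes (34.6%), in 2 of the other 13 coding rises (15.4%), Hmgb2 and Cdc73, and in Derl2 alone of the 8 falls. These shares describe the called genes and were not tested.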

How the data were processed

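Libraries were made from total RNA with Lexogen's QuantSeq 3' kit, per the labels. GRCm38 and mm10 are the builds in the submitters' processing notes, which list limma, Subread, featureCounts, HISAT2, cutadapt 1.7 and FastQC as tools. The deposited log2 CPM values had been normalised by the authors; unit and normalisation were read from the values, which share 1 range in all 24 libraries and nearly 1 common sum when unlogged. Limma 3.58.1 (R 4.3.3, statmod 1.5.0) was run on 6 group means, 4 libraries each, taking guide population as a random block (correlation 0.0485) and a variance trend. Genes needed a value of 0 in 4 libraries, which left 13272 of 15390. Guides were compared on 12 means. Calls had a Benjamini-Hochberg adjusted p under 0.05. Tag counts of low genes come from the steps between low values; they cover counting error only. For control guide 2 at TNF 1 h the titles and the column names give opposite replicate numbers, and titles were followed. The fit was tested on simulated data. Alternatives changed filter, libraries, guide terms, moderation, scaling and offset or left out a library. Positions come from GENCODE M21 (15207 of 15390 symbols matched 1 gene). Named were Ado, all called genes with a symbol, list members not called with the largest changes, and genes at the threshold. Members, lists and tests were chosen with earlier results of these data known. Figures used matplotlib 3.10.9.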

Additional observations from a re-analysis of the deposited data

Results flagged for a closer look

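Among the groups of 4 libraries of the named called genes, 5 held 1 library far from the other 3; chance alone flags about 1 group in 20, and 98 groups were examined. Ier5 in untreated cells had its lowest library, 2-1, at 6.97 log2 CPM, against 7.19 in each of the other 3, a gap of 0.975 of the range. Rpl12 in untreated cells had its lowest library, also 2-1, at 9.45 against 9.60 to 9.62 (0.895). Klf6 with TNF was highest in library 1-2, at 7.61 against 6.83 to 6.94 (0.864), and Jun with TNF was highest in the same library, at 9.00 against 8.87 to 8.89 (0.842). Ifrd1 with TNF was highest in library 2-2, at 8.47 against 8.43 to 8.44 (0.868). The response of Snord52 differed between the control guides by -3.94 (guide 2 minus guide 1; limma adjusted p = 0.048), being -0.69 in guide 2 and 3.25 in guide 1. Its libraries held 3, 6, 7 and 4 tags with TNF and 0, 0, 7 and 10 untreated.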

How the results depend on the processing

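The count of 52 became 28 (26 shared) with only the 8 control libraries in the fit, 216 with guide populations as fixed terms, 18 in guide 2 alone and 618 in guide 1 alone. The 28 were all higher and 0 were lower, so none of the 8 falls was called. The cause was not tested. Other filters, moderation, scaling and offsets gave 40 to 66. Leaving out 1 library gave 31 to 76, lowest without untreated 1-1 and highest without TNF 2-1. For Ado KO cells 34 calls became 20 with only their 8 libraries and 57 with fixed guide terms, and 26 to 44 with 1 library left out. The genotype difference gave 0 to 38 with 1 library left out, 38 without Ado KO TNF 1 h 2-2. The 6 h against 1 h count of 1019 ranged from 717 to 1218. The guide difference call was lost (0 calls) with no filter, a stricter filter, cyclic loess and pseudocounts of 1 and 5 CPM. None of the called genes with a gene name changed direction. Of those not called, Snord52 was at -0.69 in guide 2 alone and Zc3h12a at -0.0 in guide 1 alone. Replicate numbers did not pair the samples (correlations of deviations -0.00355 in guide 1 and 0.0438 in guide 2); with them as a replicate block 52 genes were called, 43 of them shared. Among called genes, Tnfaip3, Btg2, Dusp8 and Nipal1 untreated and Osgin1 with TNF held 10 or fewer tags in every library. Alternatives for Ado KO and 6 h libraries and for the guide difference were added after seeing the data.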
